A study of Homo sapiens with 12 samples.

Results

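Complement is a set of plasma proteins that mark and lyse cells, and its proteins include proteases, protease cofactors and inhibitors. A C1 protease pair (the classical route) or spontaneous turnover of C3 (the alternative route) leads to convertases that cut C3 and C5 and end in a membrane attack complex. Host cells carry regulators that break this chain at their surface, which is why carcinoma cells are often examined for them. The present account follows 9 genes of this system on expression arrays of 2 human gastric carcinoma lines treated with a MET inhibitor. They are C1S (a classical route protease), CFB (the protease subunit of the alternative C3 convertase), C3 itself, the soluble regulators CFI, SERPING1 and CLU, and the membrane regulators CD46, CD55 and CD59. The genes were chosen by symbol, with their values on these same arrays known, so their levels and changes are given as a description, without p-values, and nothing is supported with them. A probe was present for 8 of the 9 genes, out of 20046 genes named on the array. CD46, a membrane cofactor for C3b cleavage, had none under its symbol and was not analysed here.

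The 12 Illumina HumanHT-12 v4 arrays fell into 4 groups of 3. These were SNU-5 cells given 1 uM crizotinib for 24 h, untreated SNU-5 cells, MKN45 cells given the same treatment, and untreated MKN45 cells. Both lines are described in the study as carrying amplified MET, the receptor tyrosine kinase that crizotinib inhibits, and each is a single established line. SNU-5 was grown in Iscove's medium and MKN45 in RPMI-1640, so line and medium cannot be told apart. No label says whether the 3 replicates were separate cultures, so the spread between them may be technical. Mean signal per array ran between 312.5 and 557.2 units and the number of detected probes between 18998 and 20248. The array of SNU-5 control replicate 1 had the highest mean signal and correlated least with its group (r of 0.964 and 0.974 with the others). Of 6 epithelial markers, all were detected on every array, except that CDH1, the E-cadherin gene, was missed on part of the untreated SNU-5 arrays and CLDN4 on part of the untreated MKN45 arrays. On the log2 scale CDH1 read 4.88, 4.53 and 4.39 in untreated SNU-5 cells, near background, against 12.13, 11.58 and 11.29 in untreated MKN45 cells. By the call rule given further on, CDH1 and EPCAM were lower and CLDN4 higher in untreated SNU-5 than in untreated MKN45. Of 7 leukocyte markers, 6 had a probe. PTPRC and CD3E were detected on no array, while CD68, LYZ and AIF1 were detected on every array and CD14 on every SNU-5 array. Each sample was a bulk culture of a single line. In such a culture, fewer cells with a transcript and less of it per cell cannot be told apart.

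The 8 genes were read by 14 probes, of which 7, covering 6 genes, passed the filter, which asked for detection (p under 0.05 against negative control probes) on 3 or more of the 12 arrays. The 7 probes that passed were detected on at least 6 arrays and the other 7 on at most 1. The single probes of CFI and CD55 and the brighter probe of CD59 were detected on all 12 arrays. C3, the protein on which all routes converge, was detected on 0 arrays by either of its 2 probes, and its group means lay between 4.39 and 4.59 on the log2 scale. CLU, whose product clusterin keeps the terminal complex from inserting in membranes, was detected on at most 1 array by any of its 3 probes. The second probes of C1S and SERPING1 were detected on 0 arrays. The presence of signal was therefore limited to CFB, CFI, C1S, SERPING1, CD55 and CD59, and a probe below background gives only an upper bound on its transcript.

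**Figure D1:**
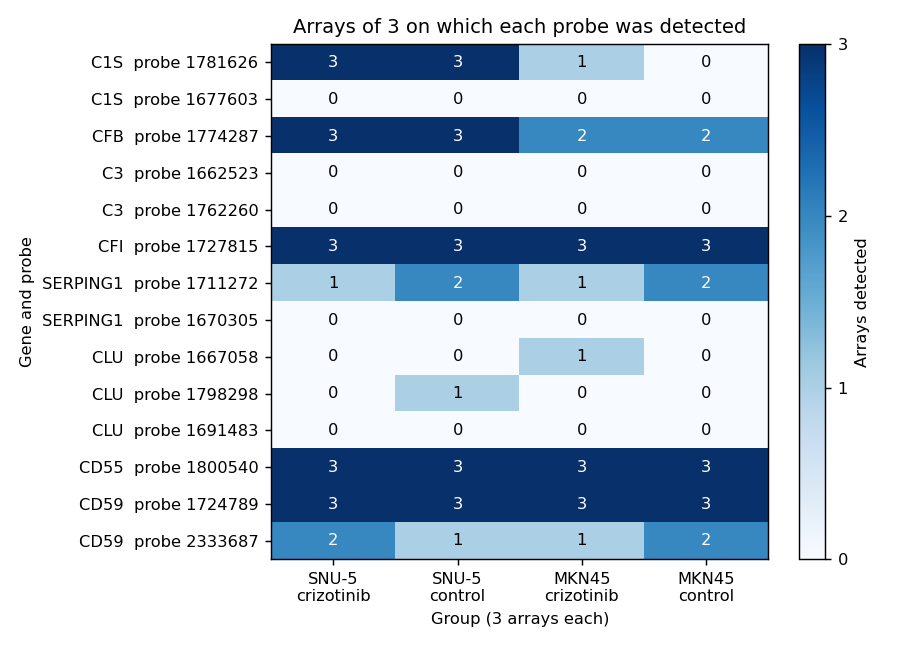
Detection of the 14 probes of 8 complement genes, with genes and probes on the vertical axis and the 4 groups on the horizontal axis. Each cell gives the number of arrays of 3 on which the probe had a detection p under 0.05, and the rows of CFI, CD55 and the first CD59 probe hold 3 in every group while those of C3 hold 0.

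The windows of 250 bases before the gene starts of CFB and CD55 are shown because these genes had the largest changes among the 6 genes that could be tested, in opposite directions and in different lines. They were taken from RefSeq (GRCh38.p14), whose promoter table matched CFB, CFI, CD46, CD55 and CD59. Capitals mark matches on either strand to short motifs named next. In the CFB window (chr6:31945845-31946094, plus strand), TTTCTGTTTC matches, on the minus strand, an interferon response-like motif (GAAA, any 2 bases, GAAA), and TTCCGGGAA is a match to TTCNNNGAA, the pattern bound by STAT factors. In the CD55 window (chr1:207321428-207321677, plus strand), both capital runs are TGACG, the core of the cAMP response element.
CFB: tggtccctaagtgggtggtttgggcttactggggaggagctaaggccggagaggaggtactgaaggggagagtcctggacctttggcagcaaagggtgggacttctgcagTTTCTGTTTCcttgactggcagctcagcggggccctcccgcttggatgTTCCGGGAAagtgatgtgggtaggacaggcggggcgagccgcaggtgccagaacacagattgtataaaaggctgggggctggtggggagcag
CD55: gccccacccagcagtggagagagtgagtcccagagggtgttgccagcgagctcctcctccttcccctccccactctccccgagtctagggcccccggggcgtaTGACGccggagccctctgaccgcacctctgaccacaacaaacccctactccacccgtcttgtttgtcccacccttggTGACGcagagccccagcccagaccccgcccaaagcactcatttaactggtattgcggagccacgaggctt
The interferon response-like motif began 140 bases and the STAT pattern 92 bases before the CFB start, and they did not overlap. Over 35116 windows of the same length, 3.02% held the interferon response-like motif and 6.57% the STAT pattern. The TGACG matches began 147 and 70 bases before the CD55 start, and 21.2% of windows held that motif. The CD55 window also held, 46 bases before the start and left in lower case, a minus-strand match to GGGCGG, the SP1 box, which 42.6% of windows held, and the CFB window held none. Searches for an NF-kappaB-like pattern (GGG, any 2 bases, TTTCC) held by 1.73% of windows, and TGANTCA, the AP-1 pattern held by 6.57%, found no match in either window. A match here is a run of letters and was not tested as a binding site.

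CFB encodes factor B, which is cut by factor D to give the protease of the alternative C3 convertase. Crizotinib-treated SNU-5 arrays read 10.67, 10.84 and 10.49 for CFB on the log2 scale, against 8.05, 8.11 and 8.05 on untreated SNU-5 arrays. All treated arrays lay above all untreated ones, by far more than the spread within either group. The change was 2.60 ± 0.22 (SE of the fit), a 6.05-fold higher signal. In MKN45 cells the values were 5.20, 4.67 and 5.66 with crizotinib, against 4.94, 4.83 and 5.30 without it. These groups overlapped near background, with detection on 2 of 3 arrays in each, and the change was 0.15 ± 0.22. The change in SNU-5 exceeded that in MKN45 by 2.45 ± 0.31. Untreated SNU-5 cells also had an 8.26-fold higher CFB signal than untreated MKN45 cells, a log2 difference of 3.05 ± 0.22. That difference was 2.145 with quantile normalization and no background correction and 2.117 on the deposited values, both past 2-fold, and the MKN45 signals in it were near background. Without SNU-5 control replicate 1, the array that stood apart, the SNU-5 change was 2.585, and the CFD change described further on was 2.15.

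CFI encodes factor I, the protease that inactivates C3b and C4b with the help of cofactors such as CD46. Its values in SNU-5 cells were 7.08, 7.42 and 7.38 with crizotinib, against 6.81, 6.51 and 6.85 without it. The treated arrays were all higher, but the change of 0.57 ± 0.17 was under 2-fold. MKN45 cells gave 5.68, 5.99 and 5.58 with crizotinib and 5.29, 5.48 and 5.62 without it, groups that overlapped, with a change of 0.29 ± 0.17. The changes in the lines differed by 0.28. Untreated SNU-5 cells had 2.40-fold the CFI signal of untreated MKN45 cells (a log2 difference of 1.26 ± 0.17), and their arrays did not overlap. With quantile normalization and no background correction that difference was 0.82, under 2-fold.

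C1S and SERPING1 encode a protease and its inhibitor in the classical route, since the C1 inhibitor made from SERPING1 removes C1r and C1s from the C1 complex. C1S read 5.26, 5.06 and 5.26 in SNU-5 cells with crizotinib, against 5.13, 5.09 and 5.10 without it, a change of 0.085 ± 0.133. In MKN45 cells C1S was detected on 1 array with crizotinib and on 0 arrays without it. SERPING1 read 4.84, 4.73 and 5.53 in treated SNU-5 cells, against 4.51, 5.46 and 5.07 in untreated ones, and 4.74, 4.75 and 4.94 in treated MKN45 cells, against 4.66, 5.08 and 5.16 in untreated ones. Treated and untreated arrays of SERPING1 overlapped in both lines, where it was detected on only 1 treated and 2 untreated arrays each. At these signals, near background, the arrays set only loose limits on a change in either gene.

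CD55, decay-accelerating factor, is a GPI-anchored protein that dissociates C3 and C5 convertases on the cell that carries it. In MKN45 cells its values were 6.15, 5.98 and 6.22 with crizotinib, against 9.79, 9.33 and 9.54 without it. The gap between the groups was many times the spread within them, and CD55 remained detected on every treated array. The change was -3.44 ± 0.22, a 10.85-fold lower signal with crizotinib. In SNU-5 cells the values were 8.25, 8.25 and 8.84 with crizotinib, against 9.01, 9.31 and 9.82 without it. The treated arrays were again all lower, by a log2 change of -0.93 ± 0.22, which is short of 2-fold. That change was -1.13 without SNU-5 crizotinib replicate 3 and -1.12 without SNU-5 control replicate 1, past 2-fold in both cases. The change in SNU-5 minus that in MKN45 was 2.51 ± 0.315. Untreated cells of the lines overlapped in CD55 signal, with a difference of -0.175 ± 0.223 (SNU-5 minus MKN45). On quantile normalized values without background correction the MKN45 change was -2.89.

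**Figure D2:**
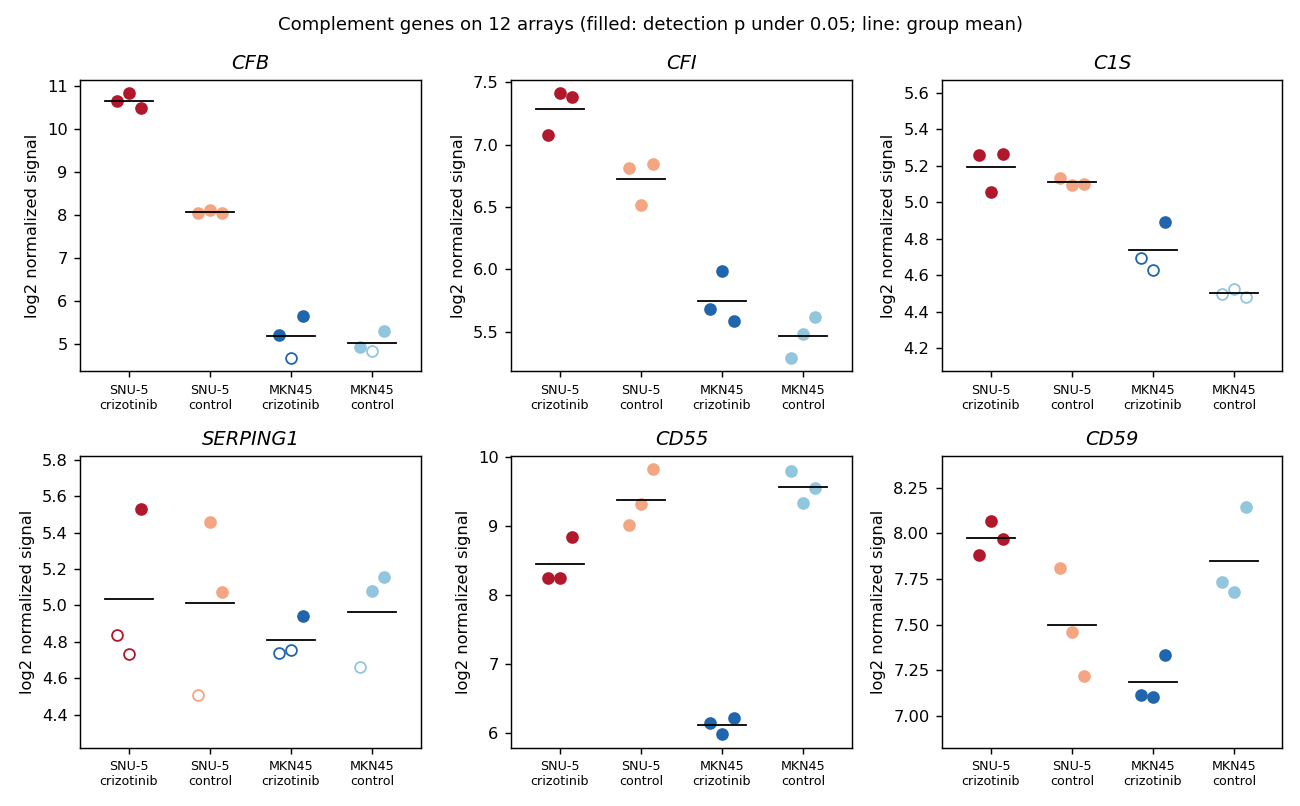
Signal of 6 complement genes on each of the 12 arrays, at the probe with the highest mean signal (vertical axes, log2 after background correction and normalization, each with its own range not starting at 0; horizontal axis, group). Filled points had a detection p under 0.05 and lines are group means of 3 arrays: CFB stands at 10.49 or above only in treated SNU-5 cells, and CD55 at 6.22 or below only in treated MKN45 cells.

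CD59, also held by a GPI anchor, blocks the last step, the insertion of C9. Its brighter probe gave 7.88, 8.07 and 7.97 in SNU-5 cells with crizotinib, against 7.81, 7.46 and 7.22 without it. MKN45 cells gave 7.11, 7.10 and 7.33 with crizotinib, against 7.73, 7.68 and 8.15 without it. The treated arrays were thus all higher in SNU-5 and all lower in MKN45, by 0.48 ± 0.18 and -0.67 ± 0.18 on the log2 scale, both under 2-fold. The difference of the changes was 1.15 ± 0.255. The second CD59 probe was dim, detected on 6 of the 12 arrays, and its difference was 0.75 ± 0.365. Of 16 alternatives for the brighter probe, 6 kept the difference past the call rule, and its values ran between 0.94 and 1.30.

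**Figure D3:**
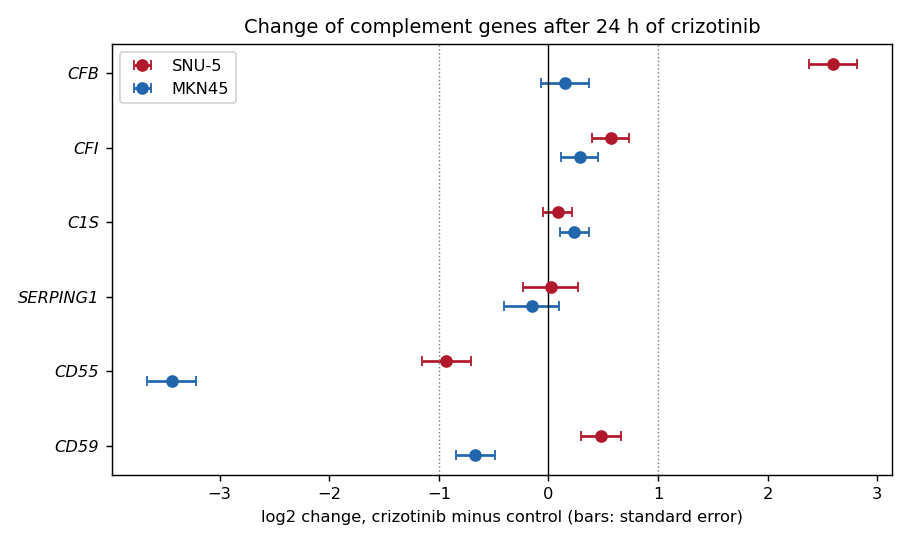
Log2 change after crizotinib (horizontal axis, crizotinib minus control) of 6 complement genes (vertical axis) in SNU-5 and MKN45 cells. Points are differences of means of 3 arrays, bars are standard errors of the fit, dotted lines mark 2-fold: CFB lies at 2.60 in SNU-5 and CD55 at -3.44 in MKN45, and the 2 points of CD59 lie on opposite sides of 0.

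A gene was called where a probe changed at least 2-fold with a limma p under 0.001 that also stayed under 0.05 after adjustment. Of the 6 genes tested, 1 (CFB) was called higher with crizotinib in SNU-5, where 7.37% of all 12760 genes tested were called higher and 8.21% lower. In MKN45 1 (CD55) was called lower, where 7.99% of all genes were called lower and 7.63% higher. The difference between the lines was called higher in SNU-5 for 3 (CFB, CD55 and CD59), against 3.59% of all genes, with 3.74% called the other way. In untreated cells 2 (CFB and CFI) were called higher in SNU-5, against 11.8% of all genes called higher and 23.1% in either direction. Groups did not overlap for 4 of the 7 probes in SNU-5, against 42% of all probes, for 3 of the 7 in MKN45, against 44.2%, and for 3 of the 7 between the untreated lines, against 45.9%. Because the genes were chosen with these values known, nothing is read from these shares. The median change of the 6 genes was 0.28 in SNU-5 and -0.001 in MKN45, beside 0.018 and 0.004 over all genes tested.

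The rest of the system was described from a list of 49 other complement genes, of which 45 had a probe and 20 passed the detection filter. A further 18 were detected on no array, among them C7, C8A, C8B and C9 of the membrane attack complex. In SNU-5 cells crizotinib called 1 of the 20 higher and 2 lower, and in MKN45 cells 1 higher and 2 lower, beside 15.6% of all genes called in either direction in each line. The median changes were 0.02 and 0.03. In the comparison of the lines' changes 4 were called, against 7.33% of all genes.

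CFD encodes factor D, the protease that cuts factor B. It read 12.05, 12.09 and 11.44 in treated SNU-5 cells, against 10.23, 9.71 and 9.70 in untreated ones. CFD rose 3.94-fold there, a log2 change of 1.98 ± 0.23 (limma, adjusted p = 2.62e-05). In MKN45 its change was 0.46 ± 0.23 (adjusted p = 0.164), and the changes differed by 1.52 ± 0.33 (adjusted p = 0.0095). The call on this difference was lost in 8 of 16 alternatives, each of which left out 1 array. CFD was the 1 gene of the 20 called higher in SNU-5 with crizotinib, beside 7.37% of all genes.

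C4BPB encodes the beta chain of C4b-binding protein, a soluble regulator of the classical C3 convertase. In MKN45 cells it read 4.66, 4.68 and 4.70 with crizotinib, against 7.22, 7.03 and 7.39 without it. The treated arrays were all below detection, so on background-corrected values the fall was at least 5.10-fold, with a fitted change of -2.53 ± 0.16 (limma, adjusted p = 1.51e-07). On the deposited log2 values, without background correction, C4BPB still fell but by 1.603. In SNU-5 cells the values were 9.56, 9.71 and 9.53 with crizotinib and 9.29, 9.73 and 9.79 without it, and no change was called (adjusted p = 0.992). The difference of 2.53 ± 0.23 was called (adjusted p = 1.43e-05), and a second C4BPB probe fell by 1.93 in MKN45 (adjusted p = 6.46e-05). In the gene order of chromosome 1, C4BPB and C4BPA lie directly before CD55, followed by CR2, CR1, CR1L and CD46. The alpha chain gene C4BPA, named here after its values were seen, read 4.35, 4.24 and 4.40 in treated MKN45 cells, all below detection, against 5.08, 4.95 and 5.01 in untreated ones. That bounds its fall only at 1.11-fold or more, and it was not called.

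C1RL, a C1r-like protease gene next to C1S and C1R on chromosome 12, moved most in the other direction in MKN45. It read 8.82, 8.82 and 8.63 with crizotinib, against 6.55, 6.69 and 6.19 without it, a rise of 2.28 ± 0.21 (limma, adjusted p = 4.16e-06). In SNU-5 it changed by 0.99 ± 0.21 (adjusted p = 0.00306), just short of 2-fold, and the difference between the lines was -1.29 ± 0.30 (adjusted p = 0.0161). That call held in only 4 of 16 alternatives. C8G, the gamma chain of the eighth component, changed by 0.98 in SNU-5 and -0.14 in MKN45, a difference of 1.13 ± 0.25 (adjusted p = 0.0112) that also held in 4 of 16. ITGAM, the alpha chain of complement receptor 3, fell in SNU-5, where it read 5.65, 5.46 and 5.77 with crizotinib, against 6.69, 6.68 and 6.77 without it (-1.09 ± 0.16, adjusted p = 1.41e-04). Without background correction that fall was under 2-fold. C1QBP, a largely mitochondrial protein that can bind C1q, fell in both lines, by 1.84 ± 0.175 in SNU-5 (adjusted p = 4.46e-06) and 1.34 ± 0.175 in MKN45 (adjusted p = 6.80e-05).

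**Figure D4:**
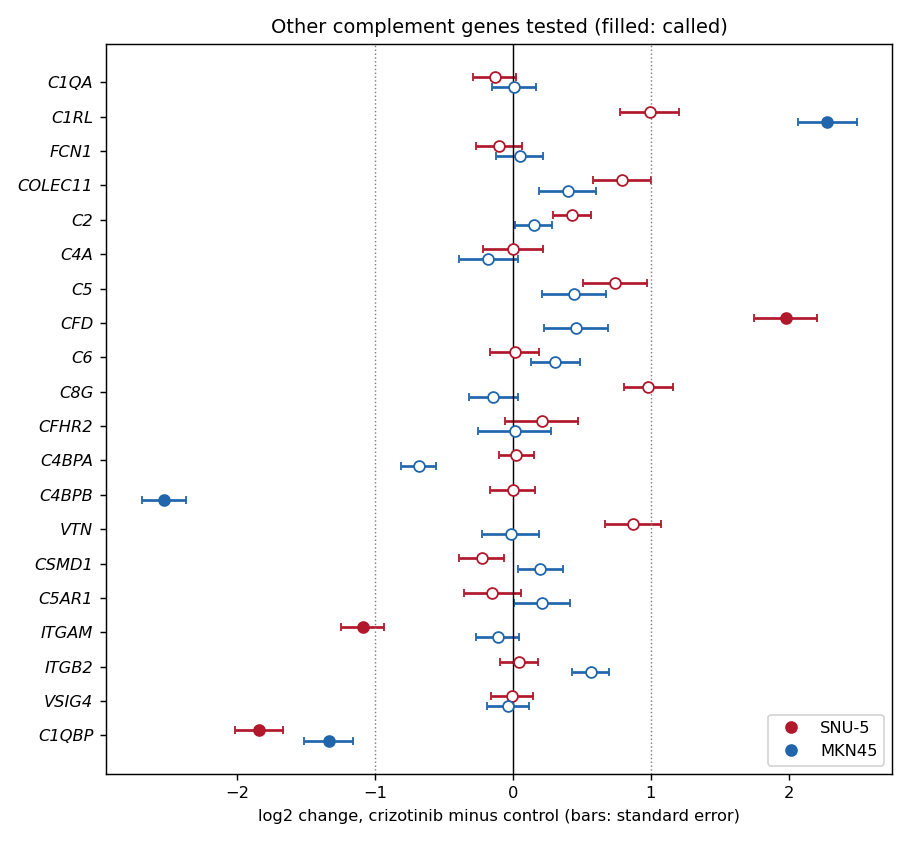
Log2 change after crizotinib (horizontal axis, crizotinib minus control) of the 20 other complement genes that passed the detection filter (vertical axis), in SNU-5 and MKN45 cells. Points are fitted changes over 3 arrays a group, bars are standard errors, filled points were called and dotted lines mark 2-fold: CFD stands at 1.98 in SNU-5, and C4BPB at -2.53 and C1RL at 2.28 in MKN45.

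Before treatment, 5 of the 20 genes were called higher in SNU-5 than in MKN45 cells and 0 lower by limma, beside 11.8% and 11.4% of all genes. At an unadjusted limma p under 0.05, 3 were lower. At an adjusted limma p under 0.05 with no fold threshold, 6 were higher and 3 lower by the brightest probe of each gene. Of all 12760 genes tested, 2897 were higher and 2873 lower by that rule. The 5 were C4BPB (2.39 ± 0.16, adjusted p = 5.34e-08), ITGAM (1.95), C5 (1.48), C8G (1.22) and the collectin gene COLEC11 (1.12). Those of C5, C8G and COLEC11 were under 2-fold without background correction. That of ITGAM was as low as 1.187 without it, and its call held in all 15 alternatives. Untreated MKN45 cells read 4.719, 5.016 and 4.541 for ITGAM, near background.

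CD55 and CD59 reach the surface only with a glycosylphosphatidylinositol (GPI) anchor, which the PIG and DPM proteins assemble in the endoplasmic reticulum. All 29 genes listed for this route were tested. In SNU-5 cells 1 rose and 3 fell, and in MKN45 cells 3 rose and 2 fell, beside 15.6% of all genes called in each. The median changes were 0.26 and -0.02. PIGW, the inositol acyltransferase, read 5.20, 5.44 and 5.40 in treated SNU-5 cells, against 7.50, 7.51 and 7.62 in untreated ones, and fell by 2.20 ± 0.18 (limma, adjusted p = 1.41e-06). In MKN45 it fell by 2.02 ± 0.18 (adjusted p = 2.69e-06). PIGZ, a mannosyltransferase, rose in both lines, by 1.18 ± 0.17 in SNU-5 (adjusted p = 1.30e-04) and 1.97 ± 0.17 in MKN45 (adjusted p = 1.58e-06). The SNU-5 call of PIGZ was lost in the 3 of 18 alternatives without background correction, where its change was as low as 0.79.
PIGA, a subunit of the enzyme for the initial step, read 6.98, 6.69 and 7.17 in treated MKN45 cells, against 8.61, 7.95 and 8.22 in untreated ones, a fall of 1.31 ± 0.21 (adjusted p = 3.90e-04). In SNU-5 PIGA changed by 0.04 ± 0.21 (adjusted p = 0.919), and the difference was 1.355 ± 0.302 (adjusted p = 0.0117), which 10 of 16 alternatives kept. The others called were PIGU and DPM2, lower in SNU-5, and PIGB and PIGP, higher in MKN45.

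Complement genes are inducible by interferon gamma, interleukins and TNF in many cell types. Of 16 listed receptors and factors on these routes, 12 were tested. With crizotinib in SNU-5, JAK1, a kinase of cytokine receptors, rose by 1.43 ± 0.20 (limma, adjusted p = 1.24e-04), and CEBPB, a transcription factor of the acute phase response, fell by 1.44 ± 0.23 (adjusted p = 3.46e-04). Those 2 were the genes called of the 12 in SNU-5. Untreated SNU-5 cells read 12.859, 11.823 and 11.869 for CEBPB, the highest on control replicate 1. Leaving out 1 array at a time gave CEBPB changes between -1.624 and -1.106. In MKN45, 0 of the 12 were called by limma and 0 by the methods' random variance t-test, and 3 had an unadjusted limma p under 0.05. In each line 15.6% of all genes were called in either direction. IRF1, an interferon-induced factor, changed by 0.33 ± 0.15 in SNU-5 (adjusted p = 0.109) and -0.03 ± 0.15 in MKN45 (adjusted p = 0.915). In untreated cells 4 of the 12 were called higher in SNU-5 and 0 lower, beside 11.8% and 11.4% of all genes. They were TNFRSF1A (2.48), CEBPB (1.57), IFNGR1 (1.36) and IRF1 (1.13). SNU-5 control replicate 1 read 12.032 for TNFRSF1A, against 10.693 and 10.681 on the other untreated SNU-5 arrays. For IFNGR1 it read lower, 8.977 against 10.005 and 9.893. At an adjusted limma p under 0.05 with no fold threshold, 7 of the 12 were higher and 2 lower. Of all 12760 genes tested, 2897 were higher and 2873 lower at that threshold.

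The genes whose log2 values over the 12 arrays were most like those of each gene are given by Pearson's r, without a p, since the arrays share line and treatment. CFB was closest to RTP4 (r = 0.994), TMEM169 (0.993) and GPX3 (0.993). Within the 6 MKN45 arrays r with RTP4 was 0.097, so that likeness came from the SNU-5 arrays and the gap between the lines. Within the same arrays r was -0.015 with GPX3 but 0.858 with TMEM169. CFI was closest to SEPTIN4 (0.981), SNRNP35 and IFI27L2 (both 0.980). CD55 was closest to C1GALT1 (0.981), TNFRSF1B (0.979) and DKK1 (0.967), and r within the MKN45 arrays was 0.987 to 0.995. Within the SNU-5 arrays it was 0.829 to 0.931. CD59 had the lowest values over the 12 arrays, with TMEM52 at 0.928, SLC67A1-AS at 0.875 and GJB2 at 0.864. Within lines its r with TMEM52 was higher, 0.995 in SNU-5 and 0.95 in MKN45, so the order over 12 arrays is not that within lines.

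Genes used as markers of other cell types also moved with treatment in SNU-5, although each culture held a single line. CD14 was lower with crizotinib, at 9.32, 9.38 and 9.53 against 10.77, 10.20 and 10.25 without it at its brighter probe (limma, adjusted p = 0.00107). That difference was not called, being at the edge of 2-fold, and its dimmer probe fell by 1.25 ± 0.20 (adjusted p = 2.98e-04). CD14, by that dimmer probe, was the only 1 of 4 leukocyte markers tested that was called in SNU-5, beside 15.6% of all genes. The summed raw leukocyte signal, not normalized between arrays, was 1127 to 1431 units in treated and 1543 to 3609 in untreated SNU-5 cells. The untreated range includes control replicate 1, the array with the highest mean signal (557.2). In MKN45 cells the raw sum was 1572 to 2443 in treated and 2857 to 2953 in untreated ones. There 0 of the 4 markers tested were called, beside 15.6% of all genes, and their median normalized log2 change was 0.013. Of 6 fibroblast markers, 4 were tested and 3 called in SNU-5, beside 15.6% of all genes called in either direction. Against the direction of CD14, LUM and DCN rose, by 2.50 ± 0.33 (limma, adjusted p = 6.74e-05) and 2.62 ± 0.15 (adjusted p = 6.26e-08) at their brightest probes. COL1A2 was called lower, and was detected on 0 treated and 3 untreated SNU-5 arrays. COL1A1 was not called, and was detected on no treated SNU-5 array but on every MKN45 array. COL3A1 did not pass the detection filter. PDGFRB was detected on no array. The summed raw signal of the 6 was 4118 to 5133 units in treated and 1594 to 1892 in untreated SNU-5 cells, and 354.2 to 385.2 in treated and 326.7 to 373.9 in untreated MKN45 cells. LUM was the brightest of those tested in treated SNU-5 cells, at 12.585, 12.276 and 12.291 on the log2 scale. Untreated SNU-5 cells read 8.84, 10.465 and 10.351 for LUM, the lowest on control replicate 1. The part of the leukocyte and fibroblast markers in the CFB and CFD results was not tested. In MKN45 1 of 6 epithelial markers was called, beside 15.6% of all genes called in either direction. It was KRT8, which fell by 2.36 ± 0.26 (limma, adjusted p = 1.39e-05). The others moved both ways, with changes of -0.70 for KRT19 (adjusted p = 0.00153), -0.98 for KRT18 (adjusted p = 0.406), 0.09 for EPCAM (adjusted p = 0.765), 0.63 for CDH1 (adjusted p = 0.0321) and 0.89 for CLDN4 (adjusted p = 0.0132), and the median was -0.31. The summed raw signal of 6 epithelial markers was 20670 to 23550 units with crizotinib and 31190 to 42570 without it. The part of these markers in the CD55 result was not tested. Of 4 endothelial markers 0 passed the detection filter.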

How the data were processed

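Signals of 47323 probes were read on 12 arrays. The authors deposited raw signal intensities with a detection p-value for each probe and array, and a table of log2 values after quantile normalization with no background correction. All sample columns were used (0 left out). The scanner software is not given in the sources used here. Of the probes, 30113 had 1 gene symbol in the platform annotation, 8 several and 17202 none, and only the first kind was named.

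The signals were corrected and normalized with neqc of limma 3.58.1 in R 4.3.3 (normexp background from the detection p-values, offset 16, quantile normalization, log2). The 23525 probes (49.7%) detected at p under 0.05 on 3 or more arrays were kept. A single limma fit of 4 group means (8 residual and 5.17 prior degrees of freedom) gave crizotinib minus control in each line, the difference of these changes (SNU-5 minus MKN45), and untreated SNU-5 minus untreated MKN45. Benjamini-Hochberg adjustment ran over all probes of a contrast. The fit was tested on simulated data. A fold is written as a bound where a group had no detected array. Single values come from a gene's probe with the highest mean signal, and a count takes a call by any probe.

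Genes and gene lists were chosen with earlier results of these data known. Other complement genes and inducers were named if called in any contrast, up to 4 per list and contrast, GPI anchor genes by smallest adjusted p, with the others called added after their values were seen, and the 3 genes most like each called gene by Pearson's r. The number of arrays limits the precision. Alternatives were other normalizations, the deposited log2 values, no filter, separate fits, a replicate block, the methods' random variance t-test and leaving out each array. Their use on named genes outside the 9 was chosen after seeing the data.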

Additional observations from a re-analysis of the deposited data

Results flagged for a closer look

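The crizotinib changes of 8 genes differed between the lines by the limma contrast of the changes, as log2 change in SNU-5 minus log2 change in MKN45. Those of CD55 (2.507), CFB (2.445) and CD59 (1.146) belong to genes chosen with these arrays known and are descriptions. For CD59 the changes were 0.479 in SNU-5 and -0.667 in MKN45. Outside the 9 genes, the difference was 2.53 for C4BPB (adjusted p = 1.43e-05), 1.521 for CFD (adjusted p = 0.0095), 1.355 for PIGA (adjusted p = 0.0117), 1.126 for C8G (adjusted p = 0.0112) and -1.287 for C1RL (adjusted p = 0.0161). The difference for C1RL is between rises of unequal size, 0.993 in SNU-5 and 2.28 in MKN45. Groups of 3 arrays were not tested for single arrays far from the others.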

How the results depend on the processing

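For the 6 genes tested, 391 of 402 alternative log2 changes moved by less than the spread between replicates, 11 moved further and 0 changed sign among called changes. Many of the 402 could not move. Leaving out an SNU-5 array keeps the MKN45 change as it was, and the reverse. The fits with no filter, for separate lines and with the replicate block return the same change and alter only its standard error and p. The count of 391 is therefore no measure of stability. With quantile normalization without background correction, and with the deposited log2 values, untreated SNU-5 minus MKN45 called 1 of the genes in place of 2 (CFI lost) and 2 other complement genes in place of 5, and SNU-5 called 2 GPI anchor genes in place of 4, as it did with the random variance t-test. With no fold threshold SNU-5 called 6 other complement genes and 9 GPI anchor genes, against 3 and 4, and MKN45 called 8 GPI anchor genes, against 5. The share of all genes called without the fold threshold was not taken, so nothing is read from these larger counts. Leaving out each array in turn gave 1 to 2 of the 9 genes in SNU-5, 3 to 7 other complement genes there (7 without SNU-5 control replicate 1, 5 without SNU-5 crizotinib replicate 2 or control replicate 3, by C1RL, C8G, VTN or COLEC11), 3 to 4 GPI anchor genes in SNU-5 and 5 to 6 in MKN45.

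The difference of CD59 lost its call without SNU-5 crizotinib replicate 1, 2 or 3, SNU-5 control replicate 2 or 3, MKN45 crizotinib replicate 1 or 2, or MKN45 control replicate 3, with values between 0.999 and 1.192, and with both forms without background correction. In the fits of the other genes, CFD lost the call on its difference in 8, C1RL in 12, C8G in 12 and PIGA in 6 of 16 alternatives, all but 3 of these by leaving out 1 array. The omitted arrays that left these calls in place were SNU-5 crizotinib replicate 3, SNU-5 control replicate 1, MKN45 crizotinib replicate 3 and MKN45 control replicate 1 for CFD, SNU-5 control replicate 2 for C1RL, SNU-5 crizotinib replicate 2 and SNU-5 control replicate 1 for C8G, and SNU-5 crizotinib replicate 2, every SNU-5 control, MKN45 crizotinib replicate 3 and MKN45 control replicate 2 for PIGA. The differences ran between 1.384 and 1.731 for CFD, -1.551 and -1.121 for C1RL, 0.83 and 1.284 for C8G, and 1.113 and 1.512 for PIGA. PIGZ and ITGAM in SNU-5 lost their calls with both forms without background correction and with the t-test. PIGB in MKN45 lost its call without MKN45 crizotinib replicate 3 and CEBPB in SNU-5 in the separate fit. DPM2 in SNU-5 lost its call in 6 of 18 (without SNU-5 crizotinib replicate 1 or 3 or control replicate 2 among them), and COLEC11 in untreated cells without SNU-5 control replicate 1.

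Arrays of the same replicate number did not deviate together in every pair (r between 0.012 and 0.449, own number highest in 4 of 6). With the replicate block the number of genes called was 2048 against 1988 in SNU-5, 2046 against 1991 in MKN45 and 935 against 935 for the difference, and the counts for the 9 genes were 1, 1 and 3 as without it. The block gives no value for the untreated contrast, and separate fits and the t-test none for contrasts between lines. Dim signals limit C1S, SERPING1 and the MKN45 values of CFB. The cause of the changes in calls was not tested.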
